A study of Mus musculus with 24 samples.

Results

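Socially isolated mice in the WT arm (SI_WT, 4 libraries) were set against GH mice without treatment (GH_Con, 4 libraries). These 8 of the series' 24 libraries were chosen by the group names in their titles, and bulk RNA sequencing of the medial prefrontal cortex was the measurement in each. The comparison sets isolated animals of the WT arm against the untreated GH baseline. SI_WT libraries carry the treatment label WT and GH_Con libraries the treatment label control. All 24 libraries carry the genotype label 5xFAD, a mouse line with transgenes, human APP among them, that hold familial Alzheimer's disease mutations and are driven in neurons by the Thy1 promoter. SI marks social isolation. The meaning of GH is not given in the sources used here, nor is that of WT under a genotype label that is 5xFAD throughout. Values of the other 4 groups are given beside some results: SI_Con (isolated, control), GH_WT, and SI_EE and GH_EE, where EE is an enriched environment. The series title names resocialization, but no label ties that word to an arm. SI_WT and GH_Con differ in housing and in arm, and the parts of these in a difference between SI_WT and GH_Con cannot be told apart from that comparison. Age and sex are not in the labels. Nor is it stated whether every library comes from a separate animal, and the p-values therefore reflect only the scatter among these libraries, which may be technical.

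The medial prefrontal cortex takes part in social behaviour, decision making and the control of stress responses. Its pyramidal neurons switch on immediate early genes within minutes of activity, its oligodendrocytes wrap axons in myelin, and its microglia surround amyloid plaques in mice with APP transgenes. Chaperones of the cytosol and of the endoplasmic reticulum (ER) fold proteins and are induced by heat and by unfolded proteins, while the clock genes cycle over the day in most cells.

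Total counts ran from 33683587 to 51274917 per library in SI_WT and from 36057361 to 38770347 in GH_Con. Slc17a7, a vesicular glutamate transporter of cortical pyramidal neurons, lay between 796 and 1336 CPM in SI_WT and between 733 and 1334 CPM in GH_Con. CPM is the count relative to the library's total, scaled by the TMM factors of edgeR. A single marker cannot show which region was dissected. Of the markers of other tissue, cerebellar Gabra6 and Fat2 lay at or under 1.05 CPM in all 8 libraries. Cerebellar Pcp2 had 2.169 CPM in SI_WT 3 and 0 in the other SI_WT libraries, and at most 0.4865 CPM in GH_Con. Striatal Ppp1r1b lay between 184 and 397 CPM in SI_WT and between 296 and 404 CPM in GH_Con. Relative to the other libraries, longer genes read lower in SI_WT 4 and GH_Con 2 than in the other 6 libraries (Spearman's rho across genes between length and deviation from the mean -0.352 in SI_WT 4 and -0.245 in GH_Con 2, against -0.0143 to 0.136). Ribosomal protein genes took 1.70% of counts in SI_WT 4 and 1.31% in GH_Con 2, and 0.936% to 1.06% in the other 6 libraries. By Xist and Y-linked Ddx3y, SI_WT held 2 female and 2 male libraries (SI_WT 2 and SI_WT 3) and GH_Con 3 female and 1 male (GH_Con 4). A fit without GH_Con 4 therefore has no male GH_Con library. Beyond fits with sex as a covariate and fits without the libraries low in longer genes, their parts in the results below were not tested.

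The APP transgene was read in the arm named WT. The human APP entry, known by its capital spelling, had 4685, 4265, 2881 and 2199 CPM in SI_WT libraries 1 to 4, against 3736, 3547, 3019 and 1500 CPM in GH_Con libraries 1 to 4. The groups overlapped, with means of 3508 ± 1160 CPM in SI_WT and 2951 ± 1010 CPM in GH_Con (SD, n = 4 each). On the log2 CPM scale (prior count 2) SI_WT minus GH_Con was 0.27, with an exact two-sided permutation p of 0.543 over the 70 assignments of the 8 libraries, whose smallest possible p is 0.0286. Which sequences were counted for this entry is not given in the sources used here. Mouse App had 1602, 1352, 1437 and 935.5 CPM in SI_WT against 1367, 1337, 1508 and 1345 CPM in GH_Con. Thy1, whose promoter drives the transgenes, had 2203, 2257, 1522 and 3477 CPM in SI_WT, against 2152, 2684, 1792 and 1203 CPM in GH_Con. The SI_WT libraries thus carried the APP transgene transcript at levels that overlapped those of GH_Con, as did mouse App and Thy1.

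**Figure D1:**
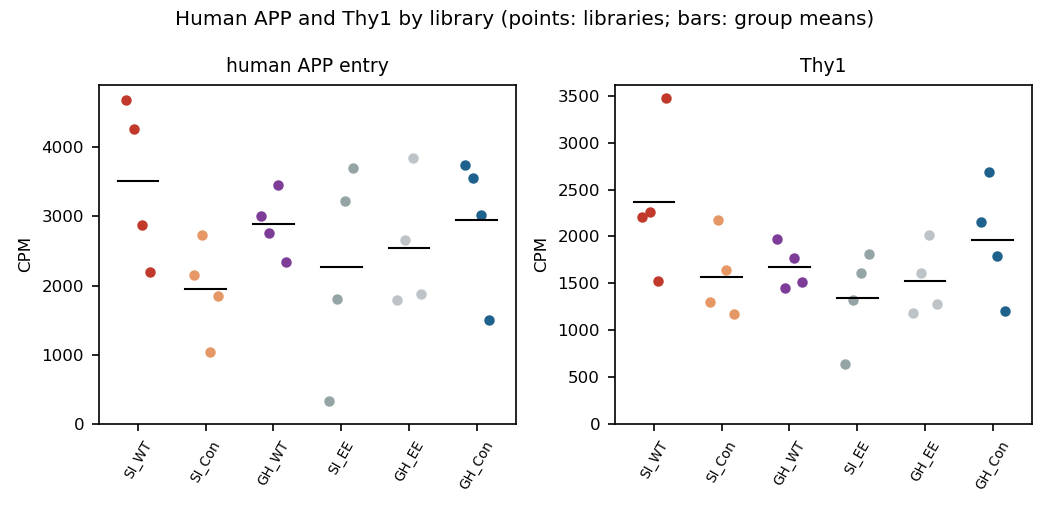
Levels (CPM, vertical axis) of the human APP entry and mouse Thy1 in each library of the 6 groups of 4, with points for libraries and bars for group means. APP lies between 2199 and 4685 CPM in SI_WT and between 1500 and 3736 CPM in GH_Con, and Thy1 between 1522 and 3477 CPM in SI_WT and between 1203 and 2684 CPM in GH_Con.

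No gene passed an adjusted p of 0.05 between SI_WT and GH_Con in edgeR's quasi-likelihood test, fitted on all 24 libraries and adjusted by Benjamini-Hochberg over 20354 genes (0% called). The smallest adjusted p was 0.728. At an unadjusted p under 0.05 stood 910 genes (4.47%), of which 321 were higher in SI_WT (1.58%) and 589 lower (2.89%). All 4 SI_WT libraries lay above all 4 GH_Con libraries for 296 genes (1.45%) and below them for 503 (2.47%). The median log2 fold change over all genes was -0.01, and 48.8% of genes were higher in SI_WT. DESeq2 on the same counts called 4 genes (0.0197%), with Bap1 and Gm10593 higher in SI_WT and Sdr42e1 and Hba-a1 lower, and limma-voom called 0 (930 at an unadjusted p under 0.05). Gm10593, named after its values were seen, averaged 1.40 ± 1.65 CPM in SI_WT and was at 0 in all 4 GH_Con libraries. A fit of the 8 libraries alone called 1 gene (0.00537%), Cxadr, lower in SI_WT (edgeR adjusted p = 0.0356). The 24 libraries include SI_EE 1, which held 241.7 CPM of cerebellar Pcp2, against at most 2.169 CPM in any other library. It also had the lowest level of the human APP entry, 337.4 CPM. Without SI_EE 1, edgeR called 0 genes and 1194 had an unadjusted p under 0.05. The fold changes below are therefore values, not calls, and each log2 fold change is the edgeR estimate for SI_WT minus GH_Con with its standard error (SE).

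**Figure D2:**
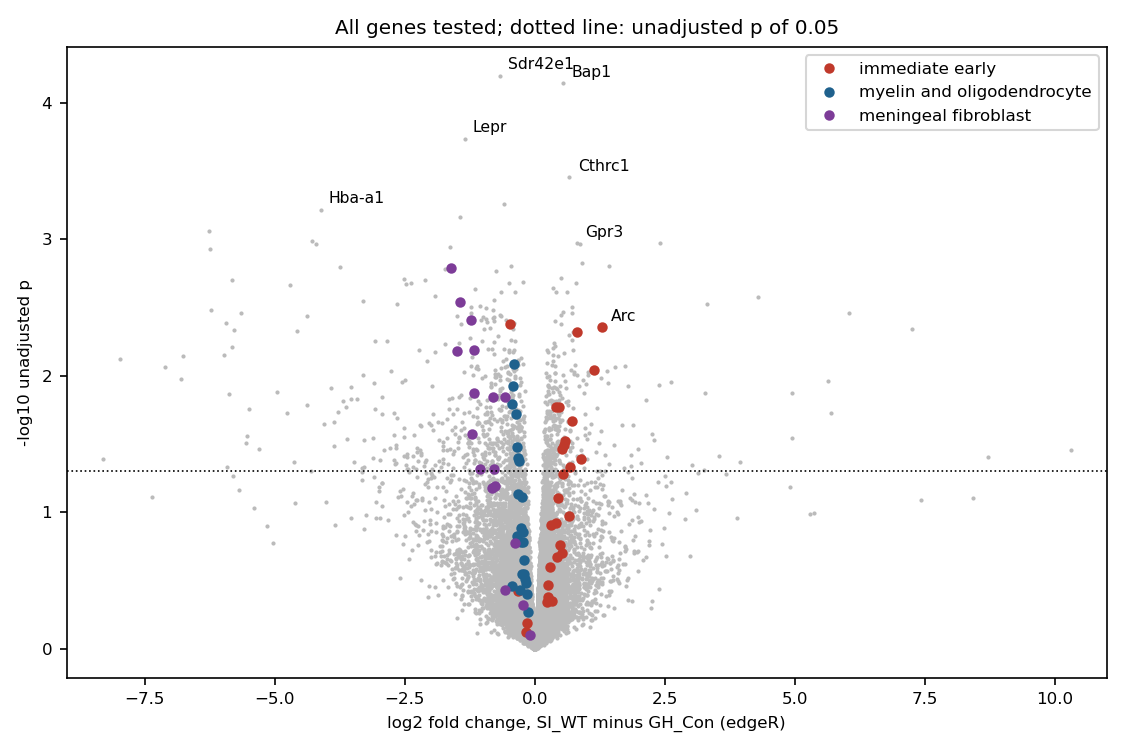
Each point is a gene, with the log2 fold change of SI_WT minus GH_Con on the horizontal axis and -log10 of the unadjusted edgeR p on the vertical axis; members of 3 lists are coloured. Immediate early genes lie mostly right of 0, and all measured myelin and meningeal fibroblast genes lie left of 0.

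Among the 15 genes with the smallest p that were higher in SI_WT, log2 fold changes ran from 0.36 to 1.43. Without overlap between the groups were 11 (1.45% of all genes). As the 15 were picked by p in this same comparison, that count follows in part from the choice. Bap1 (chr14:31251450-31259944, + strand, GRCm38), a nuclear deubiquitinase that removes ubiquitin from histone H2A, led them. It had 94.0, 142, 126 and 126 CPM in SI_WT, against 81.5, 80.9, 83.7 and 86.8 CPM in GH_Con. All SI_WT libraries lay above all GH_Con libraries, with SI_WT 1 nearest to them, and the log2 fold change was 0.55 (SE 0.113, edgeR unadjusted p = 7.15e-05, adjusted p = 0.728). Bap1 was also high in isolated mice without treatment, with a mean of 135 CPM, and in GH_WT, with 119.5 CPM, while GH_EE stood at 90.5 CPM. SI_EE had 100.4, 123.5, 113.4 and 98.32 CPM, all above the highest GH_Con library.

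Cthrc1 (chr15:39076932-39087121), a secreted glycoprotein with a collagen-like repeat, had 8.07, 10.2, 10.1 and 12.1 CPM in SI_WT, against 5.96, 6.06, 6.38 and 7.16 CPM in GH_Con (log2 fold change 0.66, SE 0.157). Gpr3 (chr4:133209340-133212536), a receptor that raises cyclic AMP without a known ligand, had 8.77, 12.3, 9.62 and 10.5 CPM in SI_WT, against 4.32, 6.49, 4.89 and 7.73 CPM in GH_Con (log2 fold change 0.81, SE 0.215). Arfip2 (chr7:105634203-105640416), a membrane-curving partner of small GTPases at the Golgi, had 72.1, 67.2, 65.8 and 53.4 CPM in SI_WT, against 41.3, 46.7, 49.0 and 44.8 CPM in GH_Con (log2 fold change 0.51, SE 0.144). For these 3 genes the groups did not overlap, and the gap between them was narrow beside the spread within SI_WT.

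Gadd45a, induced by DNA damage and other stress, had 7.55, 12.2, 7.22 and 13.1 CPM in SI_WT, against 4.79, 6.43, 4.72 and 6.05 CPM in GH_Con (log2 fold change 0.87, SE 0.23). Trib1, a pseudokinase scaffold of a ubiquitin ligase, and Spry4, an inhibitor of receptor tyrosine kinase signalling, had log2 fold changes of 0.78 (SE 0.224) and 0.71 (SE 0.216). Hexim1, an inhibitor of the transcription elongation factor P-TEFb, had 65.5, 70.2, 60.8 and 68.0 CPM in SI_WT, against 49.2, 55.2, 47.6 and 54.8 CPM in GH_Con (log2 fold change 0.36, SE 0.103). Cpsf6, a factor of messenger RNA 3' end processing, had a log2 fold change of 0.62 (SE 0.18), with no overlap. Cd200r1, an inhibitory receptor of myeloid cells, lay between 1.45 and 1.94 CPM in SI_WT and between 0.233 and 0.824 CPM in GH_Con (log2 fold change 1.43, SE 0.396), so its groups did not overlap at levels near 1 CPM. Aurkaip1 (0.91), Ubap1 (0.40), Zdhhc24 (0.72), Rhno1 (0.55) and Zswim4 (0.50, all log2 fold changes) completed the 15.

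Among the 15 genes with the smallest p that were lower in SI_WT, 10 had no overlap between the groups (2.47% of all genes). That count, too, follows in part from the choice by p. Sdr42e1 (chr8:117661399-117673689, - strand), of the short-chain dehydrogenase and reductase family, had 3.52, 4.98, 4.49 and 5.01 CPM in SI_WT, against 7.10, 6.70, 6.87 and 8.01 CPM in GH_Con. Its groups did not overlap and its spread within each was small (log2 fold change -0.67, SE 0.136, edgeR unadjusted p = 6.33e-05, adjusted p = 0.728). The other 4 groups had mean levels of 4.97 to 5.75 CPM, between those of SI_WT (4.50 CPM) and GH_Con (7.17 CPM).

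Lepr (chr4:101717404-101815352), the leptin receptor, had 1.26, 1.18, 1.17 and 0.637 CPM in SI_WT, against 3.32, 1.83, 2.52 and 3.20 CPM in GH_Con (log2 fold change -1.35, SE 0.299, edgeR unadjusted p = 0.000183). Isolated mice without treatment had a mean of 2.66 CPM and GH_WT mice 2.51 CPM. The fitted difference of SI_WT minus SI_Con was -1.32, that of SI_Con minus GH_Con -0.03 and that of GH_WT minus GH_Con -0.11, and these contrasts share libraries with each other. The SI_Con and GH_WT means of Lepr thus lay near that of GH_Con and above SI_WT. The difference of SI_WT from SI_Con did not pass the threshold either (edgeR adjusted p = 0.947). SI_EE had 1.966, 2.206, 2.064 and 1.749 CPM of Lepr. GH_EE had 2.494, 1.184, 1.76 and 1.532 CPM, so that GH_EE 2 lay within the range of SI_WT.

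Cxadr (chr16:78301489-78359774), a cell adhesion protein known as the coxsackievirus and adenovirus receptor, had 4.34, 6.42, 4.59 and 4.83 CPM in SI_WT, against 25.8, 19.8, 26.0 and 15.1 CPM in GH_Con. The SI_WT libraries were alike and all lay under the lowest GH_Con library, with a log2 fold change of -2.10 (SE 0.594, edgeR unadjusted p = 0.00199). SI_Con had a mean of 4.39 CPM and a fitted difference from GH_Con of -2.30. GH_WT spread from 6.49 to 34.9 CPM around a mean of 22.0 CPM. SI_EE had 29.62, 4.467, 26.46 and 5.028 CPM, and GH_EE had 6.075, 5.459, 5.849 and 21.28 CPM. Low and high libraries thus occurred within GH_WT, SI_EE and GH_EE, under both housings.

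Tns1, an adaptor of focal adhesions, had 29.3, 39.5, 50.8 and 42.2 CPM in SI_WT, against 67.9, 51.8, 59.96 and 63.9 CPM in GH_Con (log2 fold change -0.59, SE 0.146). Ddr1, a collagen receptor kinase, had 52.4, 51.8, 57.0 and 54.6 CPM in SI_WT, against 75.8, 68.4, 65.7 and 86.1 CPM in GH_Con (log2 fold change -0.46, SE 0.126). In neither gene did the groups overlap. Aebp1, a secreted collagen-binding protein, Slc13a4, a sulfate transporter, and Myoc, a secreted glycoprotein, had log2 fold changes of -1.44, -1.61 and -1.72, with GH_Con 1 the highest library for each. Fyn, a kinase of the Src family, had 99.4, 94.7, 95.8 and 98.6 CPM in SI_WT, against 115, 109, 116 and 112 CPM in GH_Con. That difference was small and without overlap (log2 fold change -0.22, SE 0.0631). B3gat2, a glucuronyltransferase, had a log2 fold change of -0.75 without overlap, and Kank1, a cytoskeletal adaptor, one of -0.49 with overlap. The haemoglobin genes Hba-a1, Hba-a2, Hbb-bs and Hbb-bt, with log2 fold changes from -4.70 to -4.12, complete the 15 and are given with the blood genes below.

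**Figure D3:**
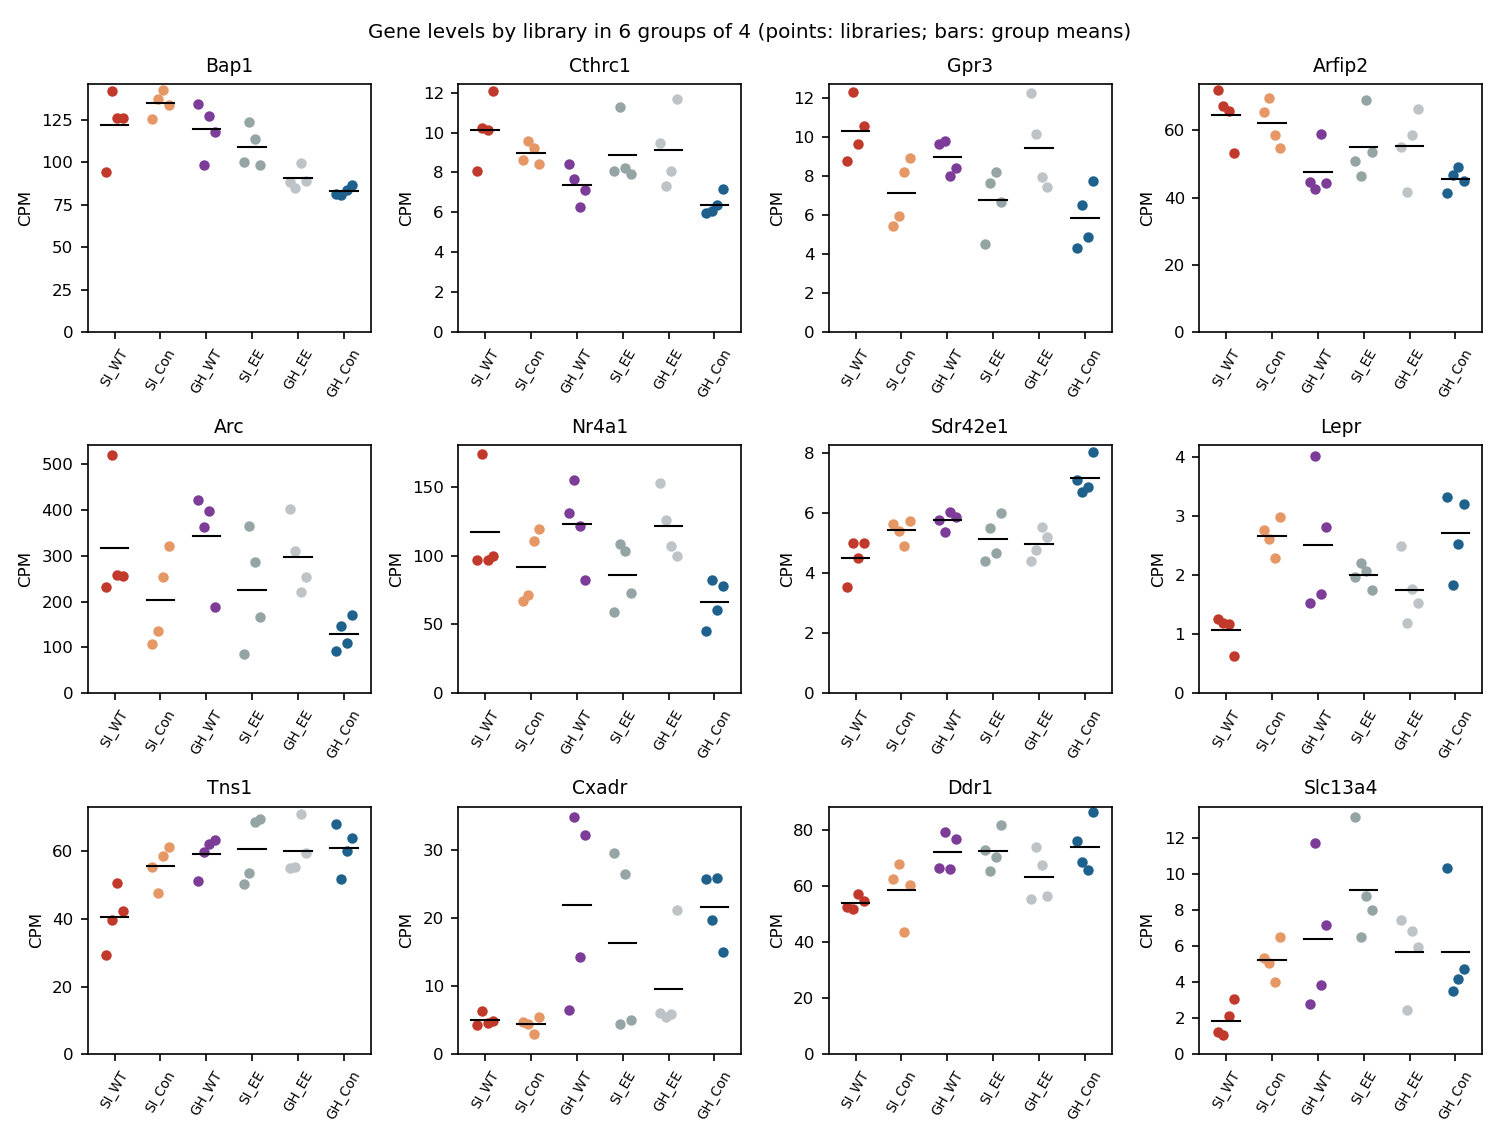
Levels (CPM, vertical axes from 0) of 12 genes in each library of the 6 groups of 4, with points for libraries and bars for group means. In all 12 genes the SI_WT points do not overlap the GH_Con points. Lepr is low in SI_WT and near the GH_Con level in SI_Con (mean 2.66 CPM), while Cxadr is low in SI_WT and in SI_Con (mean 4.39 CPM). GH_EE 2, at 1.184 CPM of Lepr, lies within the range of SI_WT. Low and high Cxadr libraries occur within GH_WT, SI_EE and GH_EE.

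Immediate early genes were mostly higher in SI_WT. Of 28 measured, 24 had a positive log2 fold change, with a median of 0.45 beside -0.01 over all genes. Without overlap and higher stood 7 of them (1.45% of all genes), and 11 had an unadjusted p under 0.05 in that direction (1.58% of all genes); none was called. Arc (chr15:74669083-74672570), which acts at synapses and controls the removal of AMPA receptors, had 232, 519, 258 and 255 CPM in SI_WT, against 91.0, 146, 109 and 170.2 CPM in GH_Con. Its groups did not overlap, and SI_WT 2 was far above the rest (log2 fold change 1.29, SE 0.406, edgeR unadjusted p = 0.00441).

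The transcription factors of the group followed. Nr4a1, an orphan nuclear receptor, had 96.7, 174, 97.1 and 99.7 CPM in SI_WT, against 45.2, 82.6, 60.1 and 77.6 CPM in GH_Con (log2 fold change 0.81, SE 0.259). Egr1 had 399, 528, 409.9 and 371 CPM in SI_WT, against 207, 313, 225 and 299.9 CPM in GH_Con (log2 fold change 0.71, SE 0.285). Egr2 had 7.81, 14.3, 7.25 and 6.37 CPM in SI_WT, against 1.39, 4.95, 3.69 and 6.20 CPM in GH_Con (log2 fold change 1.14, SE 0.396). These 3 had no overlap, as had Klf10, Ier5 and Per1. Fos, the classic marker of neuronal activity, had 19.7, 41.6, 22.1 and 23.4 CPM in SI_WT, against 7.48, 25.3, 12.6 and 21.0 CPM in GH_Con, which overlapped (log2 fold change 0.69, SE 0.325). Junb, Egr4, Nr4a3 and Tiparp also overlapped, with log2 fold changes of 0.56, 0.59, 0.89 and 0.46.

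Jun stood on the other side. It had 36.6, 36.6, 35.0 and 34.1 CPM in SI_WT, against 34.6, 51.7, 45.8 and 64.7 CPM in GH_Con (log2 fold change -0.47, SE 0.146, edgeR unadjusted p = 0.00416). Btg2, Maff and Nr4a2 were the other 3 with negative fold changes (-0.14, -0.17 and -0.32). The mean log2 CPM over the list was 5.12 ± 0.25 in SI_WT, beside 4.97 in SI_Con, 5.21 in GH_WT, 4.93 in SI_EE and 5.19 in GH_EE, and 4.68 ± 0.25 in GH_Con (SD, n = 4 each). GH_Con had the lowest group mean of the 6. Within SI_EE, library SI_EE 1 had 4.385, beside 4.867 to 5.264 in the others. Without SI_WT 2, 23 of 28 members were higher in SI_WT and the median was 0.35.

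Activity-linked growth factors were mixed. Bdnf, a neurotrophin that is induced by activity, had 37.0, 42.0, 33.2 and 29.4 CPM in SI_WT, against 28.0, 28.1, 22.1 and 25.9 CPM in GH_Con, without overlap (log2 fold change 0.44, SE 0.193). Vgf, a neuropeptide precursor, had 264, 241, 253 and 241 CPM in SI_WT, against 177, 184, 189 and 220.0 CPM in GH_Con, also without overlap (log2 fold change 0.38, SE 0.237). Ntf3, another neurotrophin, was near 0 and lower, at most 0.153 CPM in SI_WT and at least 0.372 CPM in GH_Con. Igf2, a growth factor made by meninges and choroid plexus in adult brain, lay between 0.434 and 15.2 CPM in SI_WT and between 21.4 and 36.7 CPM in GH_Con. Of the 18 neurotrophic genes measured, 9 were higher and 9 lower in SI_WT.

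Chaperones and genes of the unfolded protein response were higher in SI_WT for 23 of 24 measured members, with a median log2 fold change of 0.22. The differences were small: 3 members had an unadjusted p under 0.05 (1.58% of all genes) and 2 had no overlap (1.45% of all genes). Manf, an ER-resident protein secreted under ER stress, had 43.5, 52.2, 44.2 and 48.6 CPM in SI_WT, against 31.8, 38.5, 34.5 and 39.6 CPM in GH_Con (log2 fold change 0.38, SE 0.154). Dnajb5, a co-chaperone of the HSP40 family, had 142, 188, 139 and 166 CPM in SI_WT, against 106, 134, 104 and 126 CPM in GH_Con (log2 fold change 0.43, SE 0.188). These were the 2 members without overlap. Sdf2l1, a component of the ER chaperone complex, had 9.39, 13.5, 10.3 and 16.5 CPM in SI_WT, against 8.73, 9.78, 7.44 and 7.70 CPM in GH_Con (log2 fold change 0.56, SE 0.266).

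The other members overlapped between the groups, the large chaperones among them. Hspa5, the main HSP70 of the ER, had 235, 256, 194 and 237 CPM in SI_WT, against 181, 215, 198 and 194 CPM in GH_Con (log2 fold change 0.22, SE 0.254). Creld2, an ER protein induced by ER stress, had 11.3, 12.2, 12.04 and 17.9 CPM in SI_WT, against 12.02, 12.7, 6.81 and 11.4 CPM in GH_Con (log2 fold change 0.32, SE 0.229). Hsp90aa1 was the member with a negative fold change (-0.07). Hspa1a and Hspa1b (0.40 and 0.43) are near-identical copies whose reads the counting could have split, so their values are uncertain. The list's mean log2 CPM was 6.31 ± 0.13 in SI_WT, beside 6.24 in SI_Con, 6.12 in GH_WT, 6.38 in SI_EE and 6.38 in GH_EE, and 6.09 ± 0.07 in GH_Con (SD, n = 4 each). SI_EE and GH_EE thus had higher means than SI_WT, and GH_Con had the lowest of the 6 groups.

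Promoters of 2 genes of the chaperone and unfolded protein list are shown because they hold an element known from genes induced by ER stress. The windows are RefSeq sequences of build GRCm38.p6, from 250 bases before to 50 bases after a gene's start. Windows were given for 20 of the list's 24 genes. Manf, Hsp90aa1, Hsp90ab1 and Hspa8 had no window and were not searched. The ER stress response element, CCAAT and CCACG with any 9 bases between them, searched on both strands, was found in 5 of the 20 (Hspa5, Hsp90b1, Creld2, Pdia6 and Calr), against 37 of 27025 genes with a window (0.137%). A second form, ATTGG and CCACG with any 1 base between them, which can overlap the first through its last 5 letters, was found in Herpud1 and in 0.0444% of genes. Capitals mark the match, which starts 65 bases before the start in Hspa5 (chr2:34771840-34772139, + strand) and 126 bases before it in Creld2 (chr15:88819396-88819695, + strand), where the match is on the minus strand.
Hspa5: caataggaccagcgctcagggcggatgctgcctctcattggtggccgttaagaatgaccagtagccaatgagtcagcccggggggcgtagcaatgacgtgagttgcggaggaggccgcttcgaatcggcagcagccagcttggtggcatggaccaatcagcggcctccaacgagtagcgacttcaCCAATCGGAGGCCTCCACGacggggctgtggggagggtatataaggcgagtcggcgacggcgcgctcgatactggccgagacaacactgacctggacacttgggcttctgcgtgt
Creld2: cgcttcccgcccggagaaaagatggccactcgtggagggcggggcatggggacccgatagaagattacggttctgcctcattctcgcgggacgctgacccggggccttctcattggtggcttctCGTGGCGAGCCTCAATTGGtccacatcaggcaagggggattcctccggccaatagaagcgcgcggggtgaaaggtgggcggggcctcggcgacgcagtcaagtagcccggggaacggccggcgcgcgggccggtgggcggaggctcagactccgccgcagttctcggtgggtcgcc
A match describes the letters in the window. Of the 5 genes with the element, Hspa5, Creld2 and Pdia6 had log2 fold changes of 0.22, 0.32 and 0.21, and Hsp90b1 and Calr 0.06 and 0.03, and all 5 overlapped between SI_WT and GH_Con.

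Clock genes were higher in SI_WT for 15 of 19 measured members, with a median log2 fold change of 0.13. An unadjusted p under 0.05 was reached by 3 (1.58% of all genes) and 2 had no overlap (1.45% of all genes). The median was 0.0632 without SI_WT 1, 0.0797 without GH_Con 2 and 0.25 without SI_WT 4. Per1, a repressor arm of the clock that is also an immediate early and a glucocorticoid-induced gene, had 75.5, 104, 78.2 and 81.8 CPM in SI_WT, against 58.7, 66.3, 66.3 and 64.5 CPM in GH_Con (log2 fold change 0.41, SE 0.157). Per2, its partner, had 56.8, 76.6, 63.6 and 49.8 CPM in SI_WT, against 36.8, 41.2, 38.2 and 43.1 CPM in GH_Con (log2 fold change 0.63, SE 0.254). Neither overlapped. Bhlhe40, a clock repressor, had 146, 172, 141 and 118 CPM in SI_WT, against 116, 123, 106 and 90.2 CPM in GH_Con (log2 fold change 0.41, SE 0.184).

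The core activators Arntl and Clock (0.16 and 0.09) and the outputs Dbp and Nr1d1 (0.03 and 0.04, all log2 fold changes) overlapped. The list's mean log2 CPM was 6.16 ± 0.12 in SI_WT, 6.17 to 6.29 in the other 4 groups and 6.03 ± 0.06 in GH_Con (SD, n = 4 each), so GH_Con was the lowest of the 6. The time of day of dissection is not in the labels, and its part was not tested. The E-box CACGTG, the site to which CLOCK and BMAL1 bind, was found in the windows of 5 of 17 clock genes (Per1, Cry1, Tef, Bhlhe41 and Ciart), against 8.09% of all genes with a window. It was also in those of 7 of 22 immediate early genes (31.8%, beside 29.4% of the clock genes). Of the chaperone and unfolded protein genes, 3 of 20 held it (15%). The clock genes Per2 and Bhlhe40 had no window and were not searched. Nor were the immediate early genes Arc, Egr1, Egr3, Ier2, Klf10 and Sik1, for the same reason. The Per1 window (chr11:69098699-69098998, + strand) is shown because Per1 stands on 3 of the lists, with the E-box in capitals, 166 bases before the start.
Per1: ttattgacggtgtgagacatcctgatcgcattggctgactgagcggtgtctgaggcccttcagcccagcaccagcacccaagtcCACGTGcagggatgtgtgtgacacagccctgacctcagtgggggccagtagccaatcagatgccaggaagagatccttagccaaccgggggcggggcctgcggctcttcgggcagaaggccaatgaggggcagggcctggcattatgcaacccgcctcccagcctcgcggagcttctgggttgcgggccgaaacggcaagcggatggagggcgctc
The cyclic AMP response element TGACGTCA was in the windows of 3 of 22 immediate early genes (Btg2, Dusp1 and Maff), against 2.03% of all genes with a window, and of these Btg2 and Maff had negative fold changes.

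Glucocorticoid response genes did not share a direction to the same degree. Of 20 measured, 14 were higher in SI_WT, with a median log2 fold change of 0.07 that was -0.00771 with sex as a covariate, 0.0404 without SI_WT 2 and 0.127 without GH_Con 2. Per1 was the member at an unadjusted p under 0.05. Tsc22d3, a glucocorticoid-induced leucine zipper protein, had 71.2, 98.8, 74.7 and 98.8 CPM in SI_WT, against 73.8, 63.9, 70.3 and 61.6 CPM in GH_Con (log2 fold change 0.35, SE 0.246). Fkbp5, a co-chaperone of the glucocorticoid receptor, and Sgk1, a kinase it induces, had log2 fold changes of 0.05 and -0.05.

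**Figure D4:**
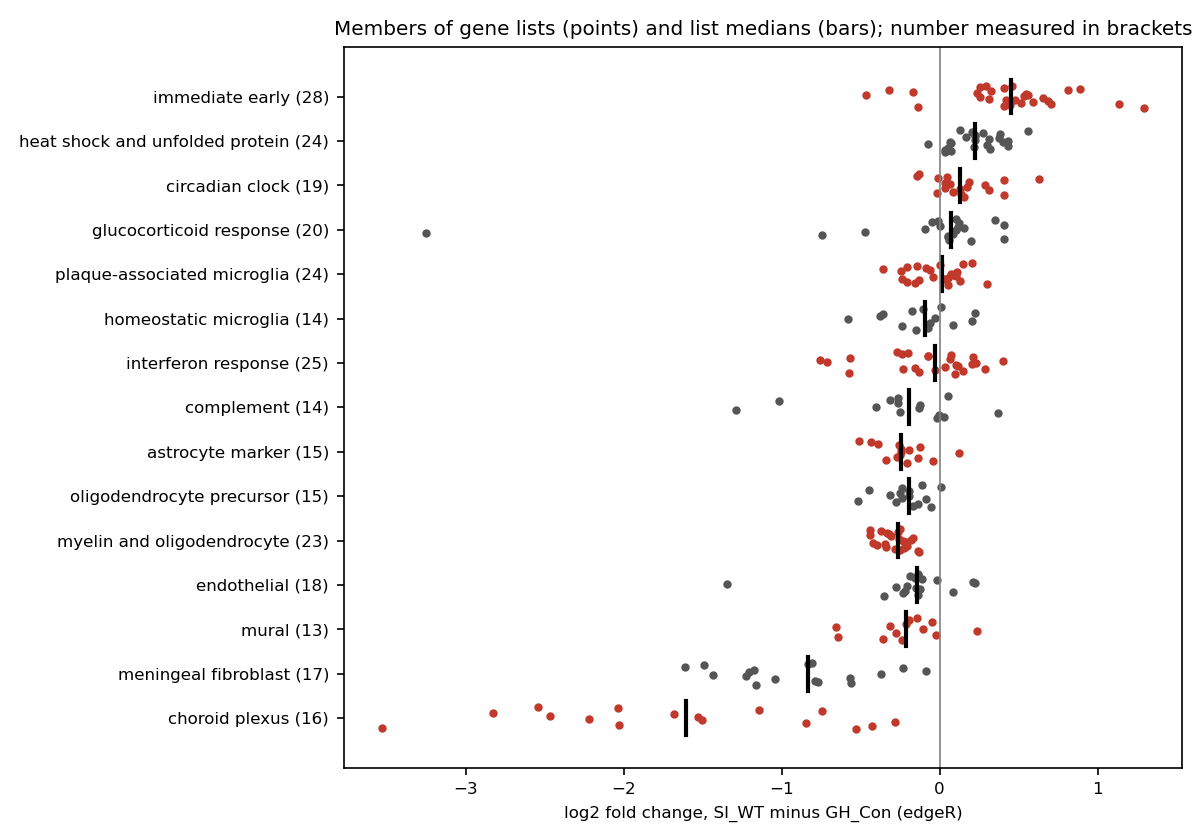
Log2 fold change of SI_WT minus GH_Con (edgeR, horizontal axis) for each measured member of 15 gene lists, with list medians as bars and the number measured in brackets. Medians run from 0.45 for immediate early genes to -1.61 for choroid plexus genes, and no member of the myelin, meningeal fibroblast or choroid plexus lists lies right of 0.

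Myelin and oligodendrocyte genes were lower in SI_WT for all 23 measured members, with a median log2 fold change of -0.26. An unadjusted p under 0.05 was reached by 7 of them (2.89% of all genes), and 4 had no overlap (2.47% of all genes). In bulk tissue, fewer cells of a type and less RNA per cell cannot be told apart. Gjc3, a gap junction protein of oligodendrocytes, had 60.8, 62.3, 62.7 and 70.8 CPM in SI_WT, against 84.1, 80.8, 76.5 and 96.3 CPM in GH_Con (log2 fold change -0.40, SE 0.136). Tspan2, a tetraspanin of myelin, had 121, 119, 125 and 109 CPM in SI_WT, against 137, 168, 149.5 and 189 CPM in GH_Con (log2 fold change -0.44, SE 0.169). Both stood without overlap, as did Enpp2.

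Mag, an adhesion protein of the innermost myelin wrap, had 128, 129.9, 143 and 176 CPM in SI_WT, against 187, 206, 170.3 and 208 CPM in GH_Con, with SI_WT 4 above GH_Con 3 (log2 fold change -0.42, SE 0.153). Trf, transferrin made by oligodendrocytes, had 249, 283, 325 and 349 CPM in SI_WT, against 371, 417, 347 and 423 CPM in GH_Con (log2 fold change -0.37, SE 0.146). Mbp, a structural myelin protein, had 489.6, 532, 515 and 814 CPM in SI_WT, against 573, 811, 600.0 and 772 CPM in GH_Con. Mbp overlapped because of SI_WT 4 (log2 fold change -0.23, SE 0.16). The list's mean log2 CPM was 6.76 ± 0.09 in SI_WT, beside 6.59 in SI_Con, 6.91 in GH_WT, 6.85 in SI_EE and 6.82 in GH_EE, and 7.05 ± 0.17 in GH_Con (SD, n = 4 each). GH_Con thus had the highest and SI_Con the lowest mean of the 6 groups, and SI_WT was the next lowest after SI_Con. The median was -0.31 when 4 libraries with low reads of longer genes (SI_WT 4, SI_Con 2, SI_Con 3 and GH_Con 2) were left out, and -0.17 without GH_Con 4, which made it smaller by over 1.5 times.

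Neighbouring glial lists leaned the same way. Of 15 oligodendrocyte precursor genes, 14 were lower in SI_WT (median -0.19), 2 of them without overlap (2.47% of all genes). Pdgfra, the growth factor receptor that marks precursors, had 38.6, 43.6, 38.2 and 29.3 CPM in SI_WT, against 53.7, 44.9, 48.5 and 56.8 CPM in GH_Con (log2 fold change -0.45, SE 0.186). Enpp6, expressed in newly forming oligodendrocytes, had a log2 fold change of -0.52 (SE 0.223). Of 15 astrocyte markers, 14 were lower (median -0.25), none without overlap and none at an unadjusted p under 0.05. Sox9, an astrocyte transcription factor, had 23.98, 20.4, 19.4 and 18.8 CPM in SI_WT, against 30.8, 26.1, 23.1 and 37.5 CPM in GH_Con (log2 fold change -0.51, SE 0.246). Of 20 cholesterol synthesis genes, 17 were lower (median -0.10, or -0.0532 without SI_WT 3, -0.0487 without GH_Con 3 and -0.16 without SI_WT 2), with Msmo1, a sterol methyl oxidase, at 69.3 to 92.2 CPM in SI_WT and 99.5 to 108 CPM in GH_Con.

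Genes of meningeal fibroblasts were lower in SI_WT for all 17 measured members, with a median log2 fold change of -0.83; 7 had no overlap (2.47% of all genes) and 11 an unadjusted p under 0.05 (2.89% of all genes). Slc13a4, the sulfate transporter named above, had 1.26, 1.05, 2.09 and 3.04 CPM in SI_WT, against 10.3, 3.51, 4.15 and 4.70 CPM in GH_Con (log2 fold change -1.61, SE 0.447). Fmod, a collagen-binding proteoglycan, had 2.96, 2.78, 3.90 and 4.25 CPM in SI_WT, against 13.6, 8.69, 6.30 and 8.99 CPM in GH_Con (log2 fold change -1.44, SE 0.427). Dcn, decorin, had 2.94, 1.62, 3.34 and 3.07 CPM in SI_WT, against 10.4, 4.04, 7.36 and 3.90 CPM in GH_Con (log2 fold change -1.23, SE 0.38). GH_Con 1 was the highest library for each of these, and without it the list's median was -0.555, with 16 of 17 members still lower.

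These fibroblast genes stood at low levels. Their summed level, most of it Ptgds, ran from 280.9 to 494.3 CPM in SI_WT and from 335.7 to 576.5 CPM in GH_Con. Their mean log2 CPM was 1.74 ± 0.31 in SI_WT and 2.61 ± 0.47 in GH_Con (SD, n = 4 each), with 2.46 to 2.99 in the other 4 groups, so SI_WT was the lowest of the 6. How much of the membranes was dissected along with the cortex is not in the labels, and its part was not tested.

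Choroid plexus genes were all lower too, 16 of 16 with a median log2 fold change of -1.61, 3 of them without overlap (2.47% of all genes). Ttr, the transthyretin of choroid plexus, had 1.08, 5.67, 1.68 and 10.2 CPM in SI_WT, against 29.0, 55.1, 6.53 and 16.9 CPM in GH_Con, which overlapped (log2 fold change -2.54, SE 1.78). The defining genes Folr1, Kcnj13, Otx2 and Cldn2 were each at 0 in 1 to 3 SI_WT libraries, and Folr1 and Cldn2 were at 0 in 1 and 2 GH_Con libraries. The summed level ran from 196.1 to 222.6 CPM in SI_WT and from 240.0 to 355.1 CPM in GH_Con, most of it Enpp2, which oligodendrocytes also express. Of 9 blood genes 6 were measured, and 5 were lower in SI_WT (median -4.17, or -2.49 without GH_Con 4). Hba-a1, an alpha globin, had 0.699, 0.551, 1.40 and 1.42 CPM in SI_WT, against 8.54, 6.70, 1.15 and 54.2 CPM in GH_Con, with GH_Con 4 far above the rest. Reads of the haemoglobin genes could have been split between near-identical copies, so their values are uncertain.

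Genes of the vessel wall were lower by less. Of 18 endothelial genes, 15 were lower (median -0.15), with Lepr the largest. Cldn5, a tight junction protein, and Pecam1, an adhesion protein, had log2 fold changes of 0.09 and -0.02. Of 13 mural genes, 12 were lower (median -0.215), with Myh11, smooth muscle myosin, at 6.86 to 9.05 CPM in SI_WT and 8.27 to 20.1 CPM in GH_Con. Without GH_Con 1 the mural median was -0.0935.

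Plaque-associated microglia genes had no direction that held across the libraries. Of 24 measured, 13 were higher and 11 lower in SI_WT (median 0.01), none without overlap and none at an unadjusted p under 0.05. The number higher was 3 without SI_WT 4 (median -0.22), 4 without GH_Con 4 (-0.17) and 10 without GH_Con 3 (-0.08), but 19 without GH_Con 1 (0.21) and 17 without SI_WT 3 (0.12). With sex as a covariate it was 17 (0.11), and without the 4 libraries with low reads of longer genes it was 3 (-0.19). Cst7, a protease inhibitor of microglia at plaques, had 5.95, 6.44, 1.30 and 9.29 CPM in SI_WT, against 13.9, 3.70, 2.81 and 0.904 CPM in GH_Con (log2 fold change 0.11, SE 1.04). Trem2, the lipid-sensing receptor of that state, had 14.3, 16.5, 8.73 and 37.7 CPM in SI_WT, against 27.2, 20.7, 12.1 and 9.79 CPM in GH_Con (log2 fold change 0.15, SE 0.44). The spread within each group was wide for these genes, and SI_WT 4 and GH_Con 1 were the highest libraries of their groups. For Cst7 and Trem2 the SE was larger than the fold change.

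Other immune lists also turned on single libraries. Homeostatic microglia genes were lower for 10 of 14 (median -0.09), but for 4 without GH_Con 1 (median 0.07) and 7 without SI_WT 3 (0.03), and with sex as a covariate the median was -0.0112. P2ry12, the purinergic receptor of that state, had 25.3, 30.5, 21.3 and 34.9 CPM in SI_WT, against 37.4, 31.1, 30.1 and 15.7 CPM in GH_Con (log2 fold change -0.03, SE 0.29). Interferon response genes were higher for 12 of 25 (median -0.03), for 1 without SI_WT 4 (-0.30) and for 17 without GH_Con 2 (0.22). Complement genes were lower for 11 of 14 (median -0.19), but the median was -0.0203 without GH_Con 1, -0.0794 without SI_WT 1 and -0.0691 with sex as a covariate. Cd59a, an inhibitor of the membrane attack complex, had 1.84, 3.96, 3.37 and 3.42 CPM in SI_WT, against 5.17, 9.38, 7.87 and 2.997 CPM in GH_Con (log2 fold change -1.02, SE 0.33). Antigen presentation genes were higher for 8 of 15 (median 0.02), and for 4 without SI_WT 4 (-0.37). H2-T23, a non-classical class I molecule, had 24.9, 26.2, 33.4 and 33.3 CPM in SI_WT, against 17.1, 20.8, 18.8 and 20.8 CPM in GH_Con, without overlap (log2 fold change 0.60, SE 0.221), while Tap1, the peptide transporter, had a log2 fold change of -0.81 (SE 0.361). Reactive astrocyte genes were lower for 11 of 18 (median -0.10), and for 8 without GH_Con 1 (0.02). Gfap, their intermediate filament, lay between 96.3 and 385 CPM in SI_WT and between 170.2 and 477 CPM in GH_Con.

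Amyloid processing genes were higher for 10 of 21 and lower for 11 (median -0.05). Bace2, a beta-secretase homologue, had 3.32, 2.75, 3.04 and 2.17 CPM in SI_WT, against 5.52, 4.31, 5.50 and 5.94 CPM in GH_Con, without overlap (log2 fold change -0.91, SE 0.345). Apoe, the lipid carrier tied to amyloid clearance, had 362, 395, 446 and 606 CPM in SI_WT, against 298, 382, 488 and 300.5 CPM in GH_Con (log2 fold change 0.30, SE 0.198). Lysosome genes were higher for 9 of 22 (median -0.02). Mitochondrially encoded genes were lower for 11 of 13 (median -0.05), with medians from -0.139 without SI_WT 4 to -0.00434 without SI_WT 1. The gene mt-Nd5, a subunit of respiratory complex I, had 4697, 5324, 5113 and 5169 CPM in SI_WT, against 6893, 5519, 6303 and 5542 CPM in GH_Con, without overlap (log2 fold change -0.26, SE 0.117).

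Neuronal lists were close to balance, and leaving out 1 library turned the sign of the median for the presynaptic, pyramidal layer and monoamine and acetylcholine receptor lists. Presynaptic genes were higher for 11 of 21 (median 0.00), pyramidal layer genes for 12 of 22 (0.01), interneuron and GABA genes for 15 of 22 (0.06), and monoamine and acetylcholine receptor genes for 12 of 23 (0.06). Glutamate receptor and postsynaptic scaffold genes were lower for 17 of 24 (-0.09), but for 8 without SI_WT 4 (0.06). Dlg4, the scaffold PSD-95, lay at 621 to 681 CPM in SI_WT and 708 to 751 CPM in GH_Con, without overlap (log2 fold change -0.15, SE 0.112). Grm2, a presynaptic metabotropic glutamate receptor, had 39.6, 32.0, 36.6 and 38.9 CPM in SI_WT, against 46.9, 42.8, 48.8 and 45.5 CPM in GH_Con (log2 fold change -0.32, SE 0.158). Otof, a calcium sensor of vesicle release and a marker of superficial pyramidal neurons, had 7.31, 5.23, 5.41 and 7.70 CPM in SI_WT, against 11.4, 11.03, 8.64 and 10.6 CPM in GH_Con (log2 fold change -0.70, SE 0.225). Both stood without overlap and lower in SI_WT.

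Neurod6, a transcription factor of pyramidal neurons, was higher without overlap, with 89.4, 108, 101 and 79.5 CPM in SI_WT, against 62.0, 73.6, 73.7 and 65.5 CPM in GH_Con (log2 fold change 0.46, SE 0.263). Of 14 perineuronal net genes 6 were higher (median -0.04), and Acan, the main proteoglycan of the nets, had 8.11, 7.63, 8.98 and 5.36 CPM in SI_WT, against 4.16, 2.58, 6.30 and 5.09 CPM in GH_Con (log2 fold change 0.73, SE 0.243). Acan overlapped through SI_WT 4. Social and stress neuropeptide genes were higher for 9 of 22 (median -0.08), none at an unadjusted p under 0.05. Of the monoamine receptors, Htr1a, an inhibitory serotonin receptor, lay between 13.1 and 18.2 CPM in SI_WT and between 15.1 and 21.4 CPM in GH_Con (log2 fold change -0.31, SE 0.141). Markers of striatum (0 of 19 higher, median -0.18), olfactory bulb (5 of 11, -0.18), cerebellum (4 of 15, -0.24) and thalamus and habenula (4 of 13, -0.23) had no member at an unadjusted p under 0.05, and the striatal median was -0.0165 without SI_WT 2, with 8 of 19 higher.

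**Figure D5:**
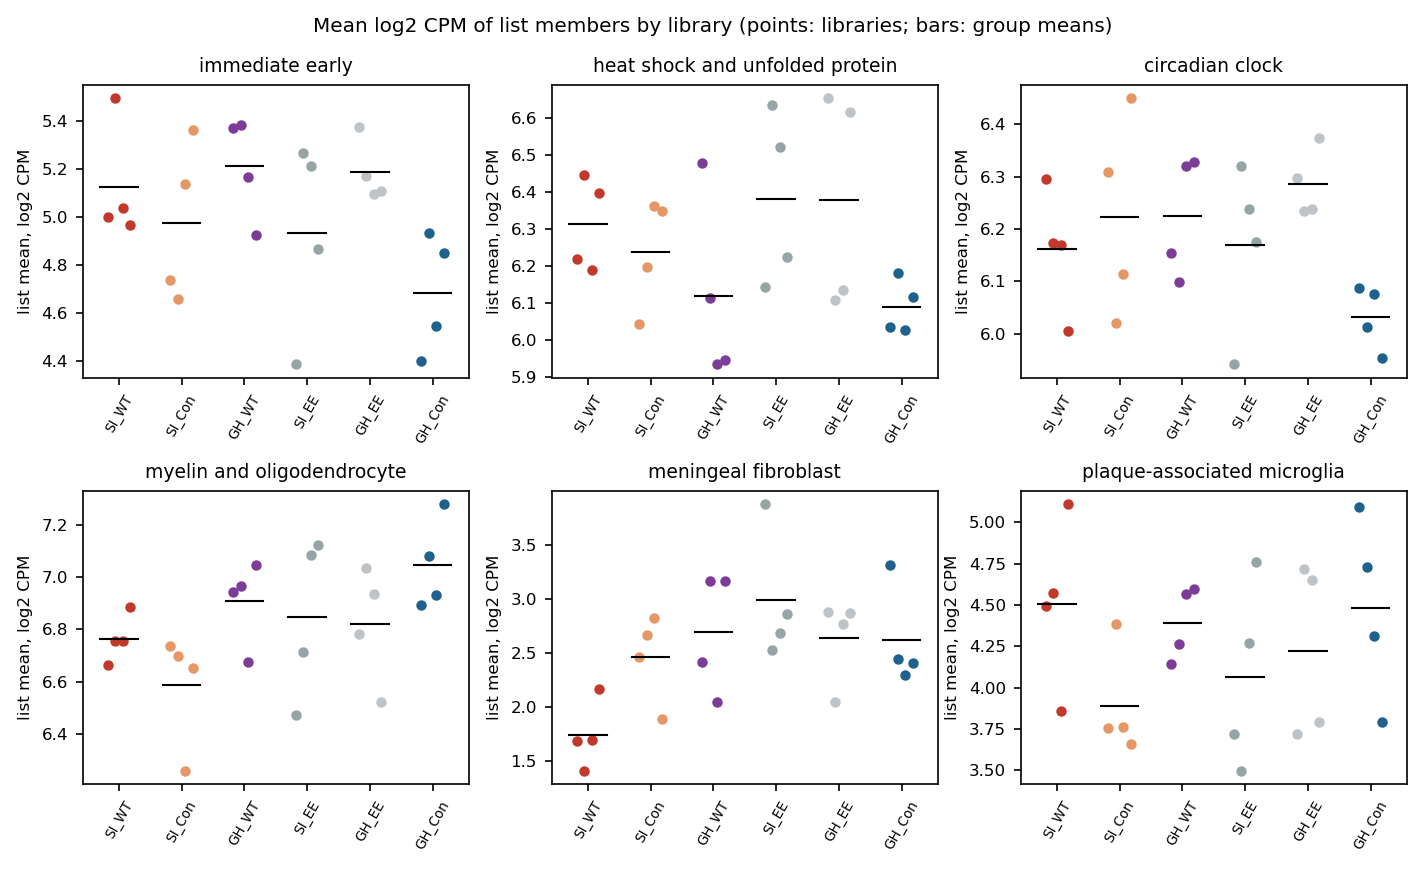
Mean log2 CPM over the members of 6 gene lists (vertical axes, not from 0) in each library of the 6 groups of 4, with points for libraries and bars for group means. Group means are 5.12 in SI_WT and 4.68 in GH_Con for immediate early genes, 6.76 in SI_WT and 7.05 in GH_Con for myelin genes, and 1.74 in SI_WT and 2.61 in GH_Con for meningeal fibroblast genes; plaque-associated microglia genes spread widely within SI_WT and GH_Con.

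The fits of single steps place SI_WT against its neighbours in the design, with libraries shared between them. For Arc, the log2 fold change was 0.66 for SI_Con minus GH_Con, 1.41 for GH_WT minus GH_Con, 0.63 for SI_WT minus SI_Con and -0.11 for SI_WT minus GH_WT. For Bap1, the same 4 values were 0.69, 0.52, -0.14 and 0.03. For Mag, they were -0.71, -0.26, 0.29 and -0.16. For Slc13a4, they were -0.12, 0.17, -1.49 and -1.78. In fitted values, Arc and Bap1 thus stood above GH_Con in SI_Con and in GH_WT as well. Mag was lower in SI_Con than in SI_WT, and Slc13a4 lower in SI_WT than in SI_Con and GH_WT. By library, Arc overlapped between SI_Con (108 to 321.3 CPM) and GH_Con (91.02 to 170.2 CPM). Mag overlapped between SI_Con (97.05 to 128.8 CPM) and SI_WT (128.1 to 175.5 CPM). Slc13a4 overlapped between SI_WT (1.046 to 3.039 CPM) and GH_WT (2.793 to 11.72 CPM). The other differences named here were without overlap. Whether these steps differ from each other was not tested.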

How the data were processed

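Medial prefrontal cortex RNA was extracted with Trizol, cleaned on RNeasy columns with DNase and sequenced from Illumina libraries (per the labels' protocols). The deposited table holds whole-number counts per gene for 24 libraries, with mm10 as the genome build per the submitters' processing notes; neither aligner, counter nor strand setting is given in the sources used here. Of 56750 entries, 52075 had a symbol (91.8%), and entries without one held 0.421% of reads. Total counts ran from 33683587 to 51274917, which bounds counting error only. Positions are from GENCODE M21 (GRCm38).

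The main test was edgeR 4.0.16 (R 4.3.3) on the deposited counts: TMM factors, filterByExpr, a robust quasi-likelihood fit of all 24 libraries with 1 term per group, and Benjamini-Hochberg adjustment over 20354 genes. SE is the absolute log2 fold change over the square root of F. Groups came from the titles. Alternatives were DESeq2 1.42.0, limma-voom 3.58.1, other scalings and filters, the 8 libraries alone, a replicate block, sex as a covariate and leaving out libraries. The fit was tested on simulated counts, drawn without outlying libraries. That test checks the code of the fit and cannot show whether small differences were missed here.

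The comparison and its 34 gene lists were chosen with earlier results of these data known. As fewer than 5 genes passed the threshold in either direction, the text names the 15 genes with the smallest p each way (mean CPM of at least 1), up to 4 members of each list by p, and a fixed set. Other list members were named after their values were seen. Some genes are not reported here.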

Additional observations from a re-analysis of the deposited data

Results flagged for a closer look

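In 21 of 158 groups of 4 libraries examined, 1 library stood far from the other 3 by Dixon's test. For independent groups of normally distributed values, chance gives about 5%. The groups here share libraries, and many of the genes were picked by p in these libraries. That share therefore cannot show whether 21 is more than chance would give.

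Neuronal lists set SI_WT 4 apart. Its mean log2 CPM was 6.965 for glutamate receptor and postsynaptic scaffold genes (7.738 to 7.82 in the other SI_WT libraries), 8.634 for presynaptic genes (9.109 to 9.16) and 6.146 for interneuron and GABA genes (6.393 to 6.433). The same library had 53.72 CPM of Aurkaip1 (30.59 to 33.59 in the others), 11.66 CPM of Rhno1 (8.252 to 8.548), 0.6368 CPM of Lepr (1.174 to 1.259) and 813.9 CPM of Mbp (489.6 to 532.4). It is the SI_WT library in which longer genes read lower, and the part of this in these values was not tested.

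SI_WT 2 stood above the other SI_WT libraries for immediate early genes, with a mean log2 CPM of 5.495 (4.965 to 5.036), and for Arc, with 518.6 CPM (232.5 to 258.0). SI_WT 3 was high for cerebellar markers, at 2.692 log2 CPM (1.367 to 1.513).

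Blood genes set GH_Con 4 apart. It had 54.16 CPM of Hba-a1 (1.145 to 8.54 in the other GH_Con libraries), 44.03 CPM of Hba-a2 (0.8014 to 6.636), 62.71 CPM of Hbb-bs (1.288 to 9.845) and 25.11 CPM of Hbb-bt (0.4865 to 4.134). It also had 12.04 CPM of Zdhhc24 (6.096 to 6.908). GH_Con 1 was high for meningeal fibroblast genes, at 3.31 log2 CPM (2.295 to 2.442), for Aebp1, at 18.25 CPM (9.158 to 10.26), and for Myoc, at 15.69 CPM (3.927 to 5.876). GH_Con 3 had a mean log2 CPM of 1.451 for reactive astrocyte genes (2.26 to 2.321), 3.076 for social and stress neuropeptide genes (3.27 to 3.286) and 6.357 for interneuron and GABA genes (6.318 to 6.325).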

How the results depend on the processing

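Across 18 alternative fits, the number of genes called stayed at 0 except with DESeq2, which called 4, and with only the 8 libraries compared, which called 1. Leaving out each library in turn gave 0 to 0 genes called. The APP difference on the log2 scale ran from -0.028 without GH_Con replicate 4, where it reversed, to 0.47 without SI_WT replicate 4. GH_Con 4 is the male library of its group, and the cause was not tested. With the replicate block, 0 genes were called and 793 had an unadjusted p under 0.05, against 910 without it. Between libraries with the same number, r across genes was 0.0318, -0.091, 0.0761 and -0.0581. The largest r, 0.259, was between SI_WT 4 and GH_Con 2, in both of which longer genes read lower. Such values cannot exclude a pairing, and the labels state none.

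Of 165 named genes, 155 kept their sign in every alternative, and of 34 list medians 19 did. A list median moved by over 1 SD between libraries in 5 lists. The circadian clock median was 0.25 without SI_WT 4, and that of blood genes -2.49 without GH_Con 4. The median of thalamus and habenula genes was -0.35 without SI_WT 2, that of neuropeptide genes 0.02 without SI_WT 3 and that of amyloid processing genes 0.02 without SI_WT 4. Blood and choroid plexus genes stood near 0 CPM in several libraries, which limits the precision of their fold changes.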
